A study of Rattus norvegicus with 12 samples.

Results

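C6 tumors that grew without drug in 2 separate animal experiments were set against each other. The comparison took the 6 vehicle-treated tumors of a series of 12, with tumors 1 to 3 in cohort 1 and tumors 4 to 6 in cohort 2 as their labels give them. The other 6 tumors came from mice given MNF, (R,R')-4-methoxy-1-naphthylfenoterol, in the same vehicle at 2 mg/kg. C6 is a glial tumor line that was induced chemically in a rat. Its cells were placed under the skin of the left flank of athymic female nude mice (host strain SWISS nu+/nu+), and all the tumors descend from this one line. From 3 days after inoculation, vehicle (ascorbic acid in saline) was injected intraperitoneally on most days over 19 days. The mice's ages were not given in the sources used here. Each tumor was a separate RNA sample on a rat expression array, and the methods describe the samples as independent biological ones. The host was a mouse, so that host transcripts close enough in sequence could also bind rat probes. The cohorts were separate experiments, so that animals, days, RNA preparation and arrays cannot be told apart from the cohort itself.

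C6 cells are known for a mixed glial character, with genes of astrocytes and of oligodendrocyte precursors, and they grow quickly in nude mice without forming brain tissue. Tumor cells in a fast-growing graft load the endoplasmic reticulum (ER) with secreted and membrane proteins. When unfolded proteins accumulate there, sensors in the ER membrane activate the transcription factors Xbp1, Atf6 and Atf4. The first 2 of these act on chaperone genes through a promoter motif called the ER stress response element, and Atf4 acts on genes of amino acid supply in what is called the integrated stress response.

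Mean signal per array was 708 to 1062, and 8849 to 9457 of 22517 probes were detected on a vehicle array. A probe counted as detected where its detection p was under 0.02. On all 6 arrays 8141 probes were detected, 2335 on some of them and 12041 on none. With 1 probe kept per named gene, 8079 genes and unnamed probes were compared, called genes below, of which 5811 had a name. Levels are given on a log2 scale on which 0 is the mean of an array's detected probes, so that a difference of 1 is a 2-fold difference. The number of arrays, 3 per cohort, limits the precision. Nothing in the sources said whether the arrays were run together.

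**Figure D1:**
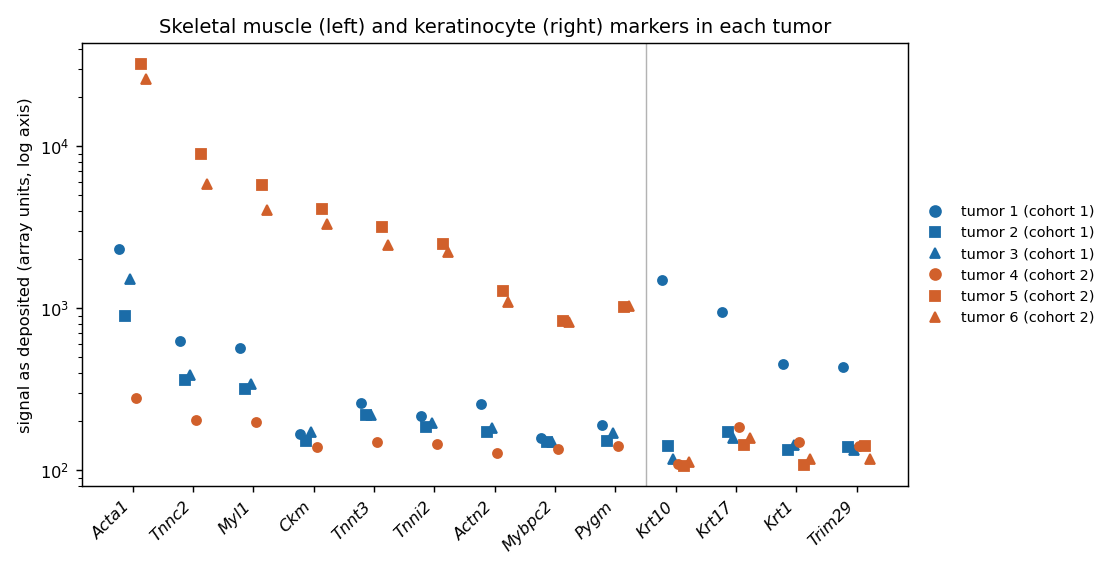
Signal of 9 skeletal muscle markers and 4 keratinocyte markers in the 6 vehicle-treated tumors, on a log axis, with colors for the cohorts and symbols for the tumors. Tumors 5 and 6 stand above the other 4 tumors for the muscle markers shown, and tumor 1 stands above the other 5 for the keratinocyte markers shown. The markers shown are a part of the 23 muscle and 8 keratinocyte markers with a probe.

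Markers of skeletal muscle or of skin stood high in 3 of the tumors. Acta1, the actin of skeletal muscle fibers, was at 1.15, 0.11 and 0.85 in cohort 1 and -1.53, 5.58 and 5.17 in cohort 2. Tnnc2, the calcium-binding troponin of fast muscle, was at -0.71, -1.20 and -1.15 in cohort 1 and -1.95, 3.71 and 2.99 in cohort 2. Tumors 5 and 6 were thus more than 4 log2 units above tumor 4 of the same cohort for both genes, while tumor 4 was the lowest of the 6. Ckm, muscle creatine kinase, had signals of 168, 152 and 172 in cohort 1 and 139, 4083 and 3300 in cohort 2. Of the 23 muscle markers with a probe, 8 had their highest signal in tumor 5 and 1 in tumor 6 at more than 2 times the median of the 6 tumors, and none had so in the other 4 tumors. With no such limit, 10 of the 23 were highest in tumor 1, 9 in tumor 5 and 2 in tumor 6. These counts and the sums below use signals that were not normalized. The array of tumor 1 was the brightest of the 6, with a mean signal of 1062 beside 708 for tumor 5. Being highest in tumor 1 with no limit therefore does not show a raised marker. The summed signal of the 23 markers was 10585 to 12803 in cohort 1, 7607 in tumor 4, 66606 in tumor 5 and 54327 in tumor 6. Actn3, Mb, Mylk2, Myh4, Myh7, Pvalb and Tnni1 were detected on no array. Genes of the outer skin marked tumor 1. Krt10, a keratin of maturing skin cells, had signals of 1501, 141 and 117 in cohort 1 and 110, 106 and 113 in cohort 2, and Krt17, a keratin of hair follicles, 947, 172 and 158 in cohort 1 and 185, 142 and 158 in cohort 2. Of the 8 keratinocyte markers with a probe, 4 had their highest signal in tumor 1 at more than 2 times the median. None had so in another tumor. The summed signal of the 8 markers was 3966 in tumor 1 and 1011 to 1182 in the other 5. Of these, Ivl, Krt18 and Krt19 were detected on no array. In bulk RNA, fewer cells of a type and less RNA per cell cannot be told apart. The gene lists that stand apart are given below also without tumors 1, 5 and 6, which leaves tumor 4 alone against tumors 2 and 3 and allows no spread within cohort 2.

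Of 18 glioma markers with a probe, 14 were detected on all 6 arrays. Vim, an intermediate filament of immature glia, was at 5.29, 5.57 and 5.41 in cohort 1 and 5.41, 5.52 and 5.66 in cohort 2, with less than 0.4 log2 units between the lowest and the highest tumor. Sox10, a transcription factor of the oligodendrocyte lineage, was at 2.11, 2.22 and 2.45 in cohort 1 and 1.84, 1.68 and 2.33 in cohort 2. Pdgfra, the growth factor receptor of oligodendrocyte precursors, was at 1.81, 1.68 and 2.21 in cohort 1 and 1.77, 1.99 and 2.27 in cohort 2. Olig1, a basic helix-loop-helix factor of the same lineage, was at 0.97, 1.38 and 1.23 in cohort 1 and 1.44, 0.64 and 1.93 in cohort 2. For all of these the cohorts overlapped. The other markers detected on all arrays were Sox2 and Sox4, which mark stem-like glioma cells, the filament gene Nes, the proteoglycan gene Cspg4, the calcium-binding S100b, the myelin enzyme gene Cnp, the adhesion receptor Cd44, Nfib, Id1 and Id3. Olig2, Sox11, Egfr and Prom1 were detected on no array. Over the 14 markers, 7 differences between cohorts were above 0 and 7 below, with a median of 0.04.

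Detection of the markers of mature brain cells differed by cell type. Of 9 myelin markers with a probe, Cnp alone was detected on all 6 arrays, 3 were on some, and 5, Mog, Mobp and Cldn11 among them, on none. Of 10 astrocyte markers, 6 were on all arrays (S100b, Gja1, Aldoc, Fgfr3, Apoe and Clu), 2 on some, and the water channel gene Aqp4 and the gap junction gene Gjb6 on none. Of the 15 neuron markers, 5 were on all arrays, among them Eno2 and Uchl1, 3 on some and 7 on none, the synaptic Snap25, Syt1 and Syp among these. The leukocyte gene Ptprc, the T-cell gene Cd3d and the neutrophil genes S100a8 and S100a9 were on none as well. Of 18 macrophage markers 3 were detected on all arrays, Cd14, Cd68 and Ms4a7. Of 12 fibroblast and pericyte markers 5 were, among them the collagens Col1a1, Col1a2 and Col3a1. Rat probes may miss transcripts of the mouse host, so that non-detection of a marker does not show that host cells of its type were absent.

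**Figure D2:**
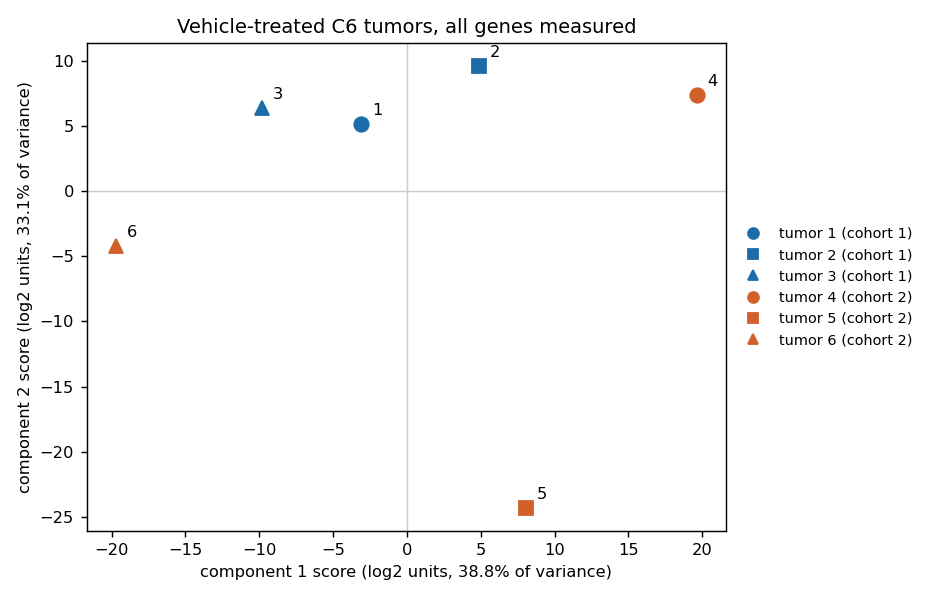
Scores of the 6 vehicle-treated tumors on the first (x) and second (y) principal component of 8079 genes, in log2 units, with the share of variance on each axis. The tumors of cohort 1 lie close to one another and those of cohort 2 lie apart, with tumor 4 at 19.6 and tumor 6 at -19.7 on the first component and tumor 5 at -24.4 on the second.

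Between the cohorts, 0 of 8079 genes passed an adjusted p of 0.05 (limma with Benjamini-Hochberg adjustment, smallest adjusted p = 0.995), which is 0% of the genes tested. At an unadjusted p under 0.05 there were 278 genes, 147 higher in cohort 2 (1.82%) and 131 lower (1.62%). The 3 tumors of cohort 2 lay entirely above those of cohort 1 for 346 genes (4.28%) and entirely below for 296 (3.66%). The median size of the difference was 0.0995 log2 units, and 23 genes had a difference over 1. Every difference between cohorts given in the following paragraphs is therefore a value that did not pass the adjusted test over the 6 tumors.

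Of the variation of all genes over the 6 arrays, 19.2% lay between the cohorts, where an even split over the components of variation gives 20%. Among the 10 ways of dividing the arrays into 3 and 3, the share ran from 9.23% to 31.4%, and the labelled division gave p = 0.5 (exact permutation test, one-sided, smallest possible p = 0.1). The share was 33.8% without tumor 4, 36.3% without tumor 6 and 15.2% without tumor 5. An even split is higher than 20% with 1 array left out, so that the 20% is no reference for these 3 shares. Tumors of different cohorts could be as close as tumors of the same cohort. Tumors 3 and 6 correlated at r = 0.990 across genes and tumors 2 and 4 at 0.989, beside 0.989 for the closest pair within cohort 1. Within cohort 2 the pairs gave 0.964 to 0.974. The genes of 1 array are not independent replicates, so that no p is attached to these values.

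The spread among tumors was wider in cohort 2. The median SD of a gene over 3 tumors was 0.133 in cohort 1 and 0.187 in cohort 2, and 5587 genes (69.2%) had the larger SD in cohort 2. The lowest and the highest tumor differed by more than 1 log2 unit for 699 genes and by more than 2 for 66.

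**Figure D3:**
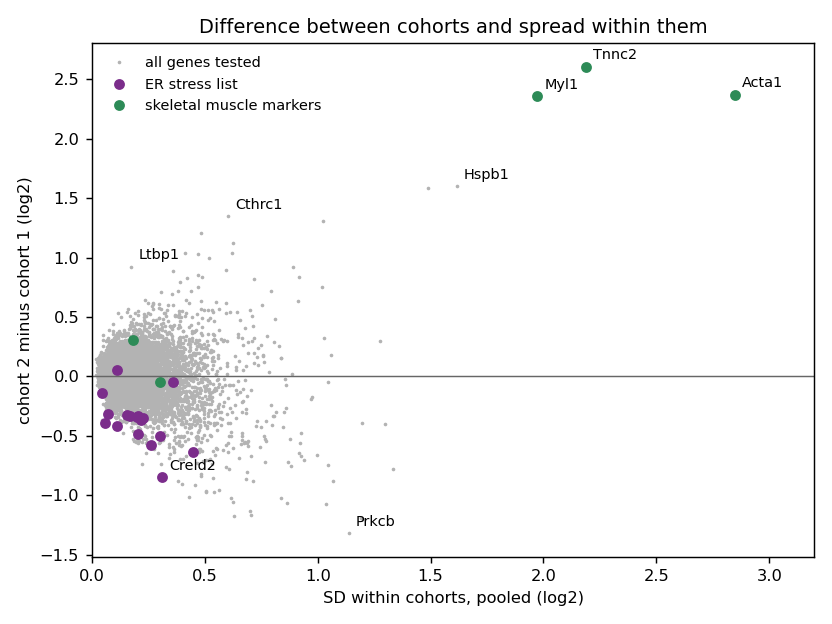
Difference between cohorts (cohort 2 minus cohort 1, y, log2) against the pooled SD within cohorts (x, log2) for 8079 genes in gray, with the ER stress list in purple and the skeletal muscle markers in green. Acta1, Tnnc2 and Myl1 combine differences over 2 with SDs near or over 2, whereas 16 of 17 ER stress genes lie below 0 at SDs under 0.5.

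Among the single genes with the smallest unadjusted p, those higher in cohort 2 included secreted regulators of growth factors. These genes and the lower ones below were chosen by p on the same arrays. Their lack of overlap between cohorts is therefore no separate support. The same holds for genes named by p within a list. Ltbp1, which holds latent TGF-beta in the matrix, was at 0.81, 0.95 and 1.20 in cohort 1 and 1.88, 2.07 and 1.77 in cohort 2. The cohorts did not overlap, and the difference was 0.92 (SE 0.14, 1.9-fold). Cthrc1, a secreted protein of remodeling tissue, was at -1.27, -1.90 and -1.17 in cohort 1 and -0.67, 0.76 and -0.39 in cohort 2, with a difference of 1.35 (SE 0.37). All 3 tumors of cohort 2 were above all of cohort 1, tumor 5 by the most. Nbl1, a secreted antagonist of bone morphogenetic proteins, had a difference of 0.39 (SE 0.11).

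Genes of metabolism and signaling were in the same group. Ass1, the argininosuccinate synthase of arginine formation, was at -0.02, 0.57 and 0.15 in cohort 1 and 1.10, 1.83 and 0.88 in cohort 2, a difference of 1.04 (SE 0.26). Qprt, which feeds quinolinate into NAD synthesis, was at 1.87, 1.59 and 1.62 in cohort 1 and 2.27, 2.25 and 2.16 in cohort 2, a difference of 0.53 (SE 0.12). Neither gene overlapped between the cohorts. Tiam1, an activator of the GTPase Rac, had 0.50 (SE 0.12), Akt1, the kinase of growth factor signaling, 0.51 (SE 0.14), and Gper1, a membrane receptor for estrogen, 0.55 (SE 0.15). Ddb1, an adaptor of a ubiquitin ligase in DNA repair, had 0.44 (SE 0.11) and Lrrfip1 0.54 (SE 0.13).

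Of the 10 named genes with the smallest p that were lower in cohort 2, Hspa5, Creld2 and Nucb2 act in the lumen of the secretory pathway. The first 2 are described with the ER genes below. Nucb2, a calcium-binding protein of the Golgi and ER, was at 1.5, 1.27 and 1.19 in cohort 1 and 0.59, 0.67 and 1.04 in cohort 2. Its cohorts did not overlap, at a difference of -0.56 (SE 0.16). Ctsk, a lysosomal collagenase, had -0.74 (SE 0.20), Cp, the copper-carrying ceruloplasmin, -0.88 (SE 0.24), and Usp8, a deubiquitinase of endosomal receptors, -0.40 (SE 0.11). Ccl12, a chemokine for monocytes, was at -0.32, -1.18 and -0.88 in cohort 1 and -2.14, -1.94 and -1.33 in cohort 2, a difference of -1.01 (SE 0.27). Tumor 6 was the highest of cohort 2 and still below tumor 2. Wdfy1 (-0.74, SE 0.16), the phosphatase gene Dusp3 (-0.64, SE 0.17) and Kiaa1191 (-0.54, SE 0.15) made up the rest.

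**Figure D4:**
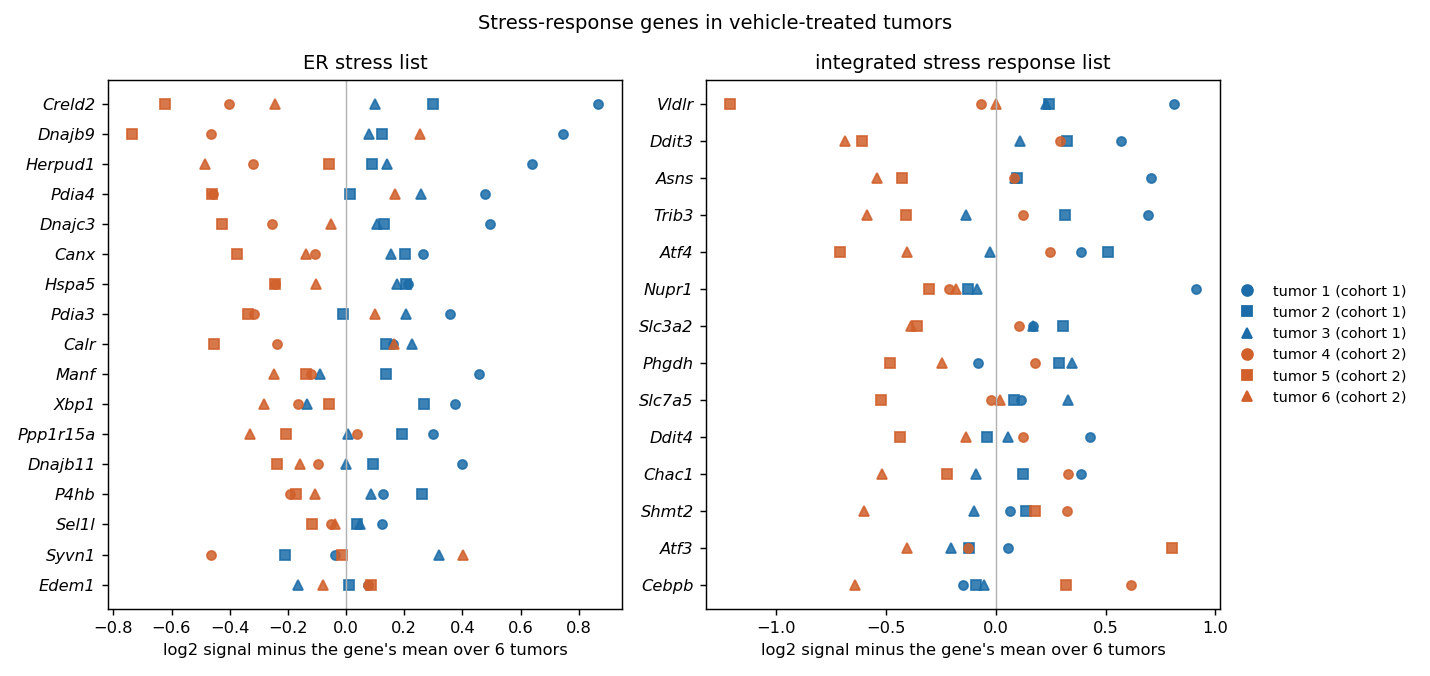
Log2 signal of each gene in each tumor minus the gene's mean over the 6 tumors (x), for 17 genes of the ER stress list (left) and 14 of the integrated stress response list (right), with blue for cohort 1 and orange for cohort 2. For 9 of the 17 genes on the left all blue points lie to the right of all orange ones, whereas tumor 4 lies with cohort 1 in the mean of the list on the right.

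The genes of ER protein folding had lower values in cohort 2, gene by gene. Of 17 measured genes of the ER stress list, 16 had a difference below 0 and 1 above, with a median of -0.35 beside 0.01 over all genes. For 9 of the 17 the cohorts did not overlap, all lower in cohort 2, where 3.66% of all genes did so, and 9 were at an unadjusted p under 0.05, where 1.62% of all genes were. None passed the adjusted test. The mean level of the list was 2.41, 2.17 and 2.14 in cohort 1 and 1.83, 1.78 and 1.98 in cohort 2, so that the cohorts did not overlap. With tumors 1, 5 and 6 left out together, 16 of 17 genes were still below 0, with a median of -0.37, and leaving out each tumor in turn gave 15 or 16 below 0 and medians of -0.44 to -0.33. Without tumor 1, 5 genes were lower at an unadjusted p under 0.05, while the count over all genes went from 131 to 73. The list was chosen with earlier results of these data known.

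Hspa5, or BiP, the Hsp70 chaperone of the ER lumen, was at 5.55, 5.54 and 5.51 in cohort 1 and 5.09, 5.09 and 5.23 in cohort 2. The spread inside each cohort was small, and all of cohort 2 lay below all of cohort 1. The difference was -0.39 (SE 0.10, 1.31-fold lower). Creld2, an ER-resident protein induced by ER stress, was at 2.93, 2.36 and 2.16 in cohort 1 and 1.66, 1.44 and 1.82 in cohort 2, with a difference of -0.84 (SE 0.21, 1.8-fold lower). Tumor 1 was the highest for this gene, and all of cohort 2 was below all of cohort 1. Canx, the lectin chaperone calnexin, was at 1.79, 1.72 and 1.68 in cohort 1 and 1.42, 1.15 and 1.38 in cohort 2, a difference of -0.41 (SE 0.12). Dnajc3, a co-chaperone that also inhibits the kinase PERK, was at 3.33, 2.97 and 2.94 in cohort 1 and 2.58, 2.41 and 2.79 in cohort 2, a difference of -0.49 (SE 0.15). Both were without overlap. Of the other members, the disulfide isomerase P4hb was at 5.09, 5.22 and 5.05 in cohort 1 and 4.77, 4.79 and 4.85 in cohort 2 (-0.31, SE 0.11), and Calr, the calcium-binding lectin calreticulin, at 5.27, 5.25 and 5.34 in cohort 1 and 4.87, 4.66 and 5.28 in cohort 2 (-0.35, SE 0.16). The cohorts did not overlap for P4hb, whereas tumor 6 lay within cohort 1 for Calr. The transcription factor Xbp1 had -0.34 (SE 0.16). Edem1, of ER-associated degradation, was the 1 gene above 0, at 0.05 (SE 0.12), and Syvn1, a ubiquitin ligase of the same process, had -0.05 (SE 0.23). Atf6 was detected on no array and Hyou1 on 2. P4hb, Calr, Xbp1, Edem1 and Syvn1 were named after their values were seen.

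The promoters of 4 of these genes are shown because each holds an ER stress response element, the site known to link the ER sensors to chaperone genes. The motif searched was CCAAT, then 9 bases of any kind, then CCACG, on both strands, in the 250 bases before and 50 bases after the start of each gene (RefSeq, GRCr8). It stood in 22 of 33469 promoters (0.0657%) and in 8 of the 19 genes of the ER stress list that had a promoter in the table. Of the 15 with a measured level, 6 held it, Hspa5, Creld2, Canx, Dnajc3, Calr and Xbp1, and their differences ran from -0.84 to -0.34 with a median of -0.40. The 9 without a match ran from -0.63 to 0.05 with a median of -0.33. A match is a description of the sequence, and these data do not measure binding. Each promoter is written 5′ to 3′ along the gene, in lower case with the CCAAT and CCACG arms of the match in capitals, and a match on the opposite strand reads CGTGG and ATTGG.
Hspa5, GRCr8 chr3:38452766-38453065, plus strand: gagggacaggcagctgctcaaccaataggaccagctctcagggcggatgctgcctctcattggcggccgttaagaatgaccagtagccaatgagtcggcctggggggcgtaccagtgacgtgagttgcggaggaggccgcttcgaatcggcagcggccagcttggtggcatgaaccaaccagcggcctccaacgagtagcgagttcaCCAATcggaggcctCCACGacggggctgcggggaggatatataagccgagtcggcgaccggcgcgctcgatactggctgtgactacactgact
Creld2, GRCr8 chr7:121789134-121789433, plus strand: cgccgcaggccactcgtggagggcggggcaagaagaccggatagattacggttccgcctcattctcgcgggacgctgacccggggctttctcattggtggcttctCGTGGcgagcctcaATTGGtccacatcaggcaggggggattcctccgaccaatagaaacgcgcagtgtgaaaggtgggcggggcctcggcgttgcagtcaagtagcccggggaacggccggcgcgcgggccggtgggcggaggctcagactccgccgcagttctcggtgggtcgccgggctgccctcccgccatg
Canx, GRCr8 chr10:35157808-35158107, minus strand: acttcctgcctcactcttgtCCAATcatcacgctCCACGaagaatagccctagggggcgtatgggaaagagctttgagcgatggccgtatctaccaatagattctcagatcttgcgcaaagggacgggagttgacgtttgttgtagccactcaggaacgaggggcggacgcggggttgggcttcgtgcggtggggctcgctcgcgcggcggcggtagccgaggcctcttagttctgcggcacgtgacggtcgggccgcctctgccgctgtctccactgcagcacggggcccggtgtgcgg
Dnajc3, GRCr8 chr15:102432417-102432716, plus strand: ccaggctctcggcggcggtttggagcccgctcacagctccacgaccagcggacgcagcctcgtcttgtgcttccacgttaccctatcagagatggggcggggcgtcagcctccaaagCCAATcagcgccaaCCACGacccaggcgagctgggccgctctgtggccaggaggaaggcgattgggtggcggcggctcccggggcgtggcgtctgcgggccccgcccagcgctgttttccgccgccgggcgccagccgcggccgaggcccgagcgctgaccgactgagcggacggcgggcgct

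Counted from the first transcribed base as 0, the match spanned -43 to -25 in Hspa5, -145 to -127 in Creld2, -230 to -212 in Canx and -133 to -115 in Dnajc3. It lay on the gene's strand in Hspa5, Canx and Dnajc3 and on the opposite strand in Creld2.

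Of 14 measured genes of the integrated stress response, 12 were below 0 and 2 above, with a median of -0.40, and 4 were at an unadjusted p under 0.05, all lower, where 1.62% of all genes were. The mean level of the list was 0.81, 0.60 and 0.50 in cohort 1 and 0.59, 0.14 and 0.07 in cohort 2. Tumor 4 lay between tumors 2 and 3 of cohort 1, and tumors 5 and 6 lay below all the others. With tumors 1, 5 and 6 left out together, 8 genes were above 0 and 6 below, with a median of 0.02. Without tumor 5 alone, none was at an unadjusted p under 0.05, with 60 lower over all genes. Ddit3, or CHOP, a transcription factor of prolonged stress, was at 2.34, 2.09 and 1.87 in cohort 1 and 2.06, 1.16 and 1.08 in cohort 2 (-0.67, SE 0.26). Asns, the asparagine synthetase that is a textbook target of Atf4, was at -0.97, -1.58 and -1.59 in cohort 1 and -1.60, -2.11 and -2.22 in cohort 2 (-0.59, SE 0.22). Slc3a2, a subunit of amino acid transporters, was at 3.56, 3.70 and 3.57 in cohort 1 and 3.50, 3.04 and 3.01 in cohort 2 (-0.43, SE 0.15). In each of these genes tumors 5 and 6 were the lowest, and tumor 4 was within cohort 1 or next to it. Vldlr, a lipoprotein receptor, was at 0.39, -0.17 and -0.19 in cohort 1 and -0.48, -1.63 and -0.42 in cohort 2 (-0.85, SE 0.33), with tumor 5 lowest by more than 1 log2 unit. A C/EBP-ATF response element, searched as TGATGNAA on both strands, stood in 3.98% of all promoters and in 3 of the 13 measured genes of this list with a promoter in the table, Nupr1, Chac1 and Trib3.

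Hypoxia and glycolysis genes, many of which are switched on by the oxygen-sensitive factor Hif1a, were also divided by tumor. Of 24 measured, 20 were below 0 and 4 above, with a median of -0.23. The mean level was 1.64, 1.73 and 1.62 in cohort 1 and 1.93, 1.26 and 1.23 in cohort 2, with tumor 4 the highest of all 6 and tumors 5 and 6 the lowest. Without tumors 5 and 6, the median was 0.33, with 18 genes above 0, and with the mean of the muscle markers as a covariate it was 0.15, again with 18 above. Leaving out tumors 5 and 6 leaves tumor 4 alone in cohort 2. The muscle markers set tumors 5 and 6 apart from tumor 4, so that the covariate is no separate check. Without tumor 5 alone the median was -0.10, with 18 genes below 0. Without tumor 6 alone it was -0.07, with 15 below 0. Whether muscle content bears on this list was not tested. Aldoc, a glycolytic aldolase, was at 3.31, 3.42 and 3.48 in cohort 1 and 2.87, 2.91 and 3.15 in cohort 2 (-0.43, SE 0.12). P4ha1, a collagen prolyl hydroxylase, was at 2.80, 3.00 and 2.91 in cohort 1 and 2.77, 2.21 and 2.26 in cohort 2 (-0.49, SE 0.17). Pkm, pyruvate kinase, was at -2.26, -1.83 and -2.06 in cohort 1 and -1.71, -1.69 and -1.51 in cohort 2 (0.41, SE 0.14), in the opposite direction and from a probe near the detection floor. These 3 genes did not overlap between the cohorts. Ankrd37 was at 1.75, 1.68 and 1.43 in cohort 1 and 1.58, 0.13 and 1.17 in cohort 2 (-0.66, SE 0.33). The cohorts overlapped for Ankrd37, where tumor 5 was the lowest by about 1 log2 unit.

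**Figure D5:**
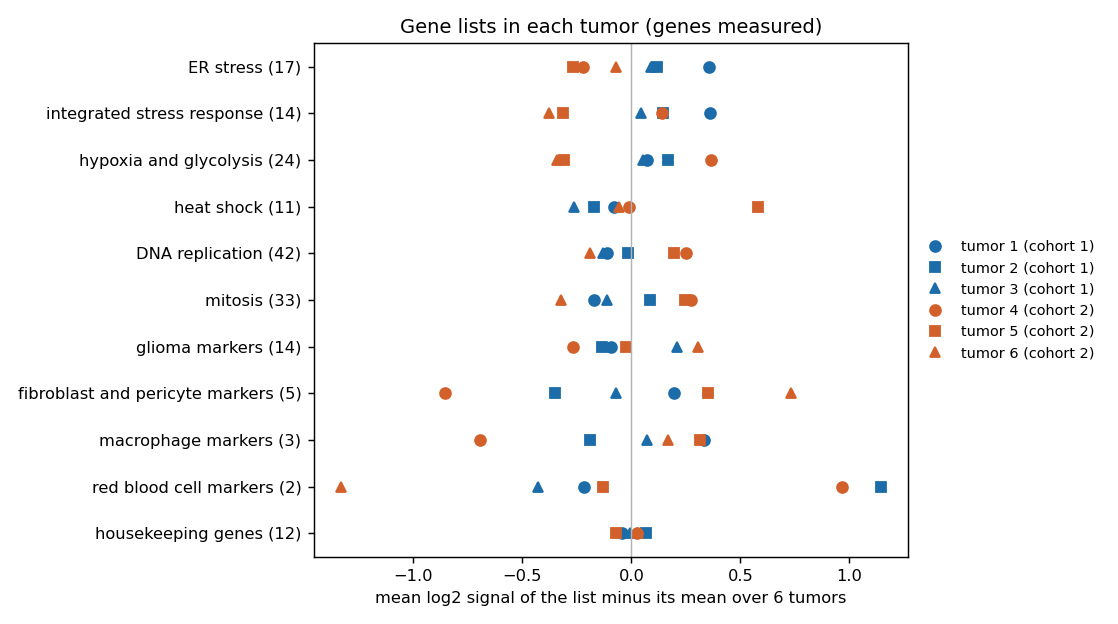
Mean log2 signal of each gene list in each tumor minus the list's mean over the 6 tumors (x), for 11 lists (y, with the number of genes measured). The cohorts do not overlap for the ER stress list, tumors 5 and 6 are lowest for the integrated stress response and hypoxia lists, and the housekeeping genes are within 0.134 log2 units of one another.

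Genes of DNA replication had slightly higher values in cohort 2, in tumors 4 and 5. Of 42 measured, 37 were above 0 and 5 below, with a median of 0.18, and 4 were at an unadjusted p under 0.05, all higher, where 1.82% of all genes were. The mean level was -0.04, 0.06 and -0.06 in cohort 1 and 0.32, 0.27 and -0.12 in cohort 2, so that tumor 6 was below all of cohort 1 and the cohorts overlapped. Without tumor 6, 22 genes were higher at an unadjusted p under 0.05 and the median was 0.34, while the count over all genes went from 147 to 491. Without tumor 4 or tumor 1 none was, and the medians were 0.10 and 0.17, with 275 and 66 over all genes. With tumors 1, 5 and 6 left out, 39 were above 0, with a median of 0.33. Gins1, a subunit of the replicative helicase, was at -0.19, -0.14 and -0.18 in cohort 1 and 0.33, 0.21 and -0.01 in cohort 2 (0.35, SE 0.12). Prim1, the primase subunit, was at 1.29, 1.55 and 1.56 in cohort 1 and 1.85, 1.76 and 1.76 in cohort 2 (0.33, SE 0.12). Orc1, of the origin recognition complex, was at -1.73, -1.48 and -1.56 in cohort 1 and -1.04, -1.24 and -1.40 in cohort 2 (0.36, SE 0.13), and Cdt1, which loads the helicase, at -2.07, -1.81 and -1.99 in cohort 1 and -1.46, -1.41 and -1.89 in cohort 2 (0.37, SE 0.16). The first 3 did not overlap between the cohorts, and for Cdt1 tumor 6 fell within cohort 1.

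In the mitosis genes, too, tumors 4 and 5 were the highest and tumor 6 the lowest. Of 33, 27 were above 0 and 6 below (median 0.16), and the mean level was -0.10, 0.16 and -0.04 in cohort 1 and 0.35, 0.32 and -0.25 in cohort 2. With tumors 1, 5 and 6 left out, 31 were above 0, with a median of 0.29, and without tumor 4 alone 21 were above 0, with a median of 0.03. Cenpl, of the inner kinetochore, was at 0.20, 0.27 and 0.29 in cohort 1 and 0.52, 0.61 and 0.42 in cohort 2 (0.26, SE 0.11), without overlap. Cdc20, an activator of the anaphase-promoting complex, was at 1.00, 1.26 and 1.27 in cohort 1 and 1.64, 1.92 and 1.05 in cohort 2 (0.37, SE 0.22), with tumor 6 inside cohort 1. Of 22 cyclins, kinases and their inhibitors, 16 were above 0 (median 0.09). Cdk5 was at -0.36, -0.47 and -0.37 in cohort 1 and -0.12, 0.03 and -0.18 in cohort 2 (0.31, SE 0.11), and the inhibitor Cdkn1b, or p27, was at 0.72, 0.55 and 0.59 in cohort 1 and 0.33, -0.41 and 0.45 in cohort 2 (-0.49, SE 0.22). Both were without overlap, in opposite directions.

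All 11 measured heat shock genes, which act on proteins of the cytosol and mitochondria, were above 0, with a median of 0.22, and none was at an unadjusted p under 0.05. The mean level was 1.83, 1.74 and 1.65 in cohort 1 and 1.90, 2.49 and 1.86 in cohort 2, high in tumor 5 alone. Hspb1, a small chaperone, was at 0.57, -1.58 and -1.74 in cohort 1 and -1.31, 2.44 and 0.90 in cohort 2, with tumors 1, 5 and 6 high, and Dnaja1, an Hsp70 partner, at 3.36, 3.48 and 3.21 in cohort 1 and 3.75, 4.58 and 3.15 in cohort 2, with tumor 5 high. Hspe1, of the mitochondrial chaperonin, was at 1.22, 1.15 and 1.03 in cohort 1 and 1.41, 1.42 and 1.29 in cohort 2 (0.24, SE 0.11) and was the 1 gene of the list without overlap. Without tumor 5, 8 of the 11 were above 0, with a median of 0.10, and without tumors 1, 5 and 6 it was 8 as well, with a median of 0.29.

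Among 18 caspase and apoptosis genes, 8 were above 0 and 10 below, with a median of -0.06, and 3 were at an unadjusted p under 0.05, all lower, where 1.62% of all genes were. Casp1, which cleaves pro-interleukin-1, was at 0.01, -0.58 and -0.91 in cohort 1 and -1.13, -1.33 and -1.08 in cohort 2 (-0.69, SE 0.22), without overlap. Casp4, which senses bacterial lipids inside cells, was at 1.17, 0.27 and 0.51 in cohort 1 and -0.52, -1.03 and 0.43 in cohort 2 (-1.02, SE 0.38), and tumor 6 lay within cohort 1. Casp12, an ER-associated caspase of rodents, was at 1.14, 0.40 and 0.01 in cohort 1 and -0.51, -0.38 and 0.35 in cohort 2 (-0.70, SE 0.32), likewise with tumor 6 within cohort 1. Diablo, a mitochondrial antagonist of apoptosis inhibitors, had -0.26 (SE 0.10).

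Of 11 measured cytokine and adhesion genes, 2 were above 0 and 9 below (median -0.13). Il33, a nuclear alarm cytokine, was at -0.27, 0.44 and -0.05 in cohort 1 and 0.99, 1.91 and 0.32 in cohort 2 (1.03, SE 0.38), with tumor 6 the lowest of cohort 2. Ccl2, a monocyte chemokine, was at 0.97, 0.85 and 0.20 in cohort 1 and 0.13, -0.01 and 0.30 in cohort 2 (-0.53, SE 0.21), and Icam1, an adhesion molecule for leukocytes, at 0.19, 0.23 and 0.25 in cohort 1 and -0.19, -0.95 and 0.10 in cohort 2 (-0.57, SE 0.25). For Il33 and Ccl2 1 tumor of cohort 2 lay within cohort 1, and for Icam1 none did. The inflammatory cytokines Il1a, Il1b and Tnf were detected on no array, and Il6 on 2.

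In direction the interferon response was near balance, with 8 of 19 genes above 0 (median -0.05). At an unadjusted p under 0.05 there were 2 genes, both lower, where 1.62% of all genes were. The cohorts did not overlap for 3, all lower, where 3.66% of all genes did so. Within this list, Ifitm3, a membrane protein that blocks virus entry, was at 2.44, 2.53 and 2.42 in cohort 1 and 1.63, 0.44 and 2.16 in cohort 2 (-1.05, SE 0.38), with tumor 5 far below the others. Irf7, a transcription factor of interferon genes, was at -0.01, -0.43 and -0.24 in cohort 1 and -1.16, -0.74 and -0.44 in cohort 2 (-0.56, SE 0.20). Both were without overlap. Isg15, Ifit1, Ifit3 and Cxcl9 were detected on no array.

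The immediate early genes, which respond within minutes to growth factors, were also near balance, with 12 of 25 above 0 (median -0.07). Jun was at 0.57, 0.78 and 0.80 in cohort 1 and 0.99, 1.04 and 1.15 in cohort 2 (0.35, SE 0.12), without overlap, whereas Fos was at -0.08, 0.00 and 0.16 in cohort 1 and -0.49, -0.94 and -0.13 in cohort 2 (-0.55, SE 0.20) and Mafk at 0.35, 0.41 and 0.69 in cohort 1 and -0.20, -0.18 and 0.27 in cohort 2 (-0.52, SE 0.16). The values of Jun and of its partner Fos thus went in opposite directions, and Fos and Mafk did not overlap either.

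Several groups were close to level between the cohorts. Of 57 ribosomal protein genes, 41 were above 0 with a median of 0.04 (0.00 to 0.06 over the scalings tried, with 13 to 28 genes below 0), and none was at an unadjusted p under 0.05. For 32 proteasome genes the median was -0.01, and for 43 genes of oxidative phosphorylation it was -0.04. The 12 housekeeping genes had a median of 0.02. Ppia, the cyclophilin often used as a reference, was at 5.55, 5.60 and 5.53 in cohort 1 and 5.48, 5.55 and 5.68 in cohort 2, and Actb, beta-actin, at 5.45, 5.77 and 5.76 in cohort 1 and 5.66, 5.92 and 5.79 in cohort 2. Each spanned less than 0.5 log2 units over the 6 tumors. The 18 cholesterol synthesis genes had a median of -0.08, with Insig1, which holds the sterol sensor Scap in the ER, at 2.25, 1.91 and 2.00 in cohort 1 and 1.68, 1.54 and 1.83 in cohort 2 (-0.37, SE 0.14), without overlap.

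The 15 named genes with the largest pooled SD within cohorts began with the muscle genes Acta1, Tnnc2 and Myl1 (SD 2.85, 2.19 and 1.97). Hspb1 (1.62) and Thbs4 (1.49), a matrix glycoprotein of tendon and muscle, followed. Thbs4 was at -1.10, -1.65 and -1.59 in cohort 1 and -1.97, 2.19 and 0.18 in cohort 2, high in tumor 5 and to a lesser degree in tumor 6. The cohort differences of these 5 genes were 2.37, 2.60, 2.35, 1.60 and 1.58, and tumor 4 stood among or below cohort 1 in each. Without tumor 4, Acta1, Tnnc2 and Myl1 passed the adjusted test between cohorts, along with Apln (limma, adjusted p = 0.00179 for the 3 muscle genes and 0.0461 for Apln), which had levels of 1.24, 1.36 and 1.16 in cohort 1 and 1.08, -0.27 and 0.03 in cohort 2. Apln encodes apelin, a vessel-forming peptide, and was named because of this call.

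Tumor 5 was low for another group. Prkcb, a protein kinase C, was at 1.06, 2.27 and 2.72 in cohort 1 and 1.03, -0.80 and 1.86 in cohort 2, and Fmod, the matrix proteoglycan fibromodulin, at 0.98, 1.43 and 2.21 in cohort 1 and 0.55, -0.66 and 2.09 in cohort 2. Calcb, a neuropeptide of the calcitonin family, was at 1.04, 2.43 and 2.03 in cohort 1 and 3.07, -0.30 and 1.53 in cohort 2, and Mrap, a partner of melanocortin receptors, at -0.66, 0.02 and 0.73 in cohort 1 and -0.87, -1.94 and 0.66 in cohort 2. In all 4, tumor 5 was the lowest of the 6, by more than 1 log2 unit. Tumor 4 was high for Esm1, a secreted proteoglycan of endothelial tip cells, at -1.53, -1.24 and -1.77 in cohort 1 and 0.46, -2.09 and -1.94 in cohort 2, and tumors 4 and 5 for Nppb, a natriuretic peptide, at -1.21, 0.33 and -0.60 in cohort 1 and 1.46, 1.58 and -0.59 in cohort 2. Npy, neuropeptide Y, was at 1.35, 0.80 and -0.47 in cohort 1 and -0.30, 2.01 and 0.51 in cohort 2, highest in tumors 1 and 5, and Ramp2, a partner of the calcitonin-like receptor, at 1.96, 0.86 and 1.13 in cohort 1 and -0.27, 2.31 and 1.76 in cohort 2, low in tumor 4 alone.

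Stroma and blood markers varied from tumor to tumor. The mean of 5 fibroblast and pericyte markers was 2.36, 1.82 and 2.10 in cohort 1 and 1.31, 2.52 and 2.90 in cohort 2, lowest in tumor 4 and highest in tumor 6. Col3a1, a fibrillar collagen, was at 1.94, 0.35 and 1.32 in cohort 1 and 0.57, 2.66 and 2.62 in cohort 2, and Postn, a matrix protein of activated fibroblasts, at 3.59, 3.14 and 3.26 in cohort 1 and 1.63, 3.62 and 4.22 in cohort 2. In both, tumor 4 was the lowest of cohort 2. The 3 macrophage markers had means of -0.12, -0.64 and -0.38 in cohort 1 and -1.15, -0.14 and -0.28 in cohort 2, also lowest in tumor 4. Hemoglobin followed neither cohort, with Hbb at 2.49, 3.98 and 2.06 in cohort 1 and 3.91, 2.22 and 1.21 in cohort 2 and Hba-a1 at 3.75, 4.99 and 3.76 in cohort 1 and 4.71, 4.19 and 2.80 in cohort 2. Tumors 2 and 4 were the highest for both and tumor 6 the lowest. Plvap, of fenestrated vessels, was at -0.56, -1.38 and -1.79 in cohort 1 and -1.74, -2.03 and -2.13 in cohort 2, with tumor 1 the highest.

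The steadiest named genes were Clec14a, Kctd6, Dnajc14, Hook1 and Pip4k2c, whose SD over the 6 tumors was 0.018, 0.024, 0.025, 0.027 and 0.027 log2 units. Clec14a, Hook1 and Pip4k2c were far below the array mean in every tumor, close to the floor of detection.

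Of 13 measured genes that the study followed for the drug, 9 had a difference above 0 and 4 below, with a median of 0.07. The lowest were Casp4, Casp12 and Casp1, given above. Ccnd1, cyclin D1, was at 4.45, 4.54 and 4.81 in cohort 1 and 4.39, 4.76 and 4.71 in cohort 2 (0.03, SE 0.15). Ccna2, cyclin A, was at 0.77, 0.73 and 0.46 in cohort 1 and 1.20, 1.21 and 0.56 in cohort 2 (0.34, SE 0.20), and Cdkn3, a phosphatase of cyclin-dependent kinases, at 1.95, 1.90 and 1.97 in cohort 1 and 2.05, 2.06 and 1.72 in cohort 2 (0.01, SE 0.13). The cohorts overlapped in all 3, and tumors 4 and 5 were the highest for Ccna2. Galnt3, which starts O-glycosylation, was at 0.96, 0.84 and 0.95 in cohort 1 and 1.08, 1.31 and 1.07 in cohort 2 (0.24, SE 0.12), higher in cohort 2 without overlap. Sox4 was at 0.76, -0.15 and 1.08 in cohort 1 and 0.10, 0.35 and 0.58 in cohort 2 (-0.22, SE 0.30), and the spindle checkpoint kinase Bub1b at -0.43, -0.33 and -0.37 in cohort 1 and -0.22, -0.15 and -0.55 in cohort 2 (0.07, SE 0.13). Both overlapped. Mmp11, or stromelysin-3, was at -1.69, -1.55 and -1.48 in cohort 1 and -1.69, -0.15 and -1.01 in cohort 2 (0.62, SE 0.34), and Mmp14, a membrane-bound collagenase, at 1.81, 1.57 and 1.81 in cohort 1 and 1.38, 2.39 and 2.17 in cohort 2 (0.25, SE 0.25). For both, tumors 5 and 6 were the highest and tumor 4 was the lowest of its cohort. The cannabinoid receptor genes Cnr1 and Cnr2 and the adrenergic receptor Adrb1 were detected on no array, Adrb3 on 1 and the gelatinase gene Mmp2 on 3.

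Detection itself seldom followed the cohort. Of all probes, 13 were detected on the 3 arrays of cohort 2 and on none of cohort 1, and 19 the other way. Those of the first kind with a name were Skp2, Nup188, Plekhh2, Khsrp and Kcnd3, with differences of 0.09 to 0.36. All had signals of 142 to 199, close to background. The named ones of the other kind were led by Mid2 (-0.29), Birc3 (-0.26) and Efcab11 (-0.25), with signals up to 250.

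In MNF-treated tumors of the same cohorts, cohort 2 minus cohort 1 gave 0 of 8079 genes past an adjusted p of 0.05 as well (0%, smallest adjusted p = 0.0863, limma), with 1168 (14.5%) at an unadjusted p under 0.05. These are other animals, so that the comparisons share no tumor. Across genes, which are not independent, the differences of vehicle and of MNF correlated at r = 0.003 (Spearman's rho = -0.05), and of the 278 vehicle genes at an unadjusted p under 0.05, 142 had the same sign with MNF. The difference between the differences passed for 0 genes (0%, interaction in limma, smallest adjusted p = 0.525), with 755 (9.35%) at an unadjusted p under 0.05.

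For the gene groups, the MNF values stood as follows. The housekeeping genes had a median of -0.23 (10 of 12 below 0) beside 0.02 in vehicle. The ribosomal protein genes had -0.29 (54 of 57 below 0) beside 0.04. Values below 0 with MNF were thus not particular to the stress lists. The array of MNF tumor 1 had a mean signal of 500 and a log2 SD of 1.39, both the lowest of all arrays. The ER stress list had a median of -0.12, with 14 of 17 below 0, beside -0.35 in vehicle. Hspa5 had -0.35 (SE 0.13) with MNF beside -0.39, and Creld2 -0.04 (SE 0.14) beside -0.84. The value of Hspa5 was thus below 0 under both treatments. With MNF the housekeeping and ribosomal protein genes were below 0 too, and in vehicle they were not. The like values of Hspa5 therefore cannot show that its cohort difference recurred. The value of Creld2 was near 0 with MNF (adjusted p of the difference between treatments = 0.525, limma). The integrated stress response list had -0.35 (12 of 14 below 0) and the hypoxia list -0.41 (21 of 24 below 0), the same sign as in vehicle. The replication list had 0.01 and the mitosis list -0.04. Skeletal muscle markers had 3.85, all 5 above 0. Ltbp1 had -0.11 (SE 0.16) with MNF beside 0.92 in vehicle, and the difference of the 2 had an adjusted p of 0.525 (limma).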

How the data were processed

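RNA of 12 tumors was measured on Illumina rat bead arrays, read with GenomeStudio (version 1.6.0 per the labels). The deposited intensity values are signals per probe on a linear scale, not normalized and not pooled, each with a deposited detection p-value against negative controls. The authors' processed values are deposited as a score, a Z score of log10 signal per array, and served as an alternative. Probe names came from the platform annotation, and of 22517 probes 13259 had 1 symbol and 9258 had none. No genome build was used other than GRCr8, for the RefSeq promoters.

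Signals of probes with a detection p under 0.02 on all 6 vehicle arrays were taken to log2, turned into Z scores per array over these probes and multiplied by the mean SD over arrays. The deposited scores differ in being over all probes and unscaled. For a named gene the brightest probe was kept. Cohort 2 minus cohort 1 was fitted with limma 3.58.1 in R 4.3.3 (lmFit, eBayes) and adjusted by Benjamini-Hochberg, and the procedure was tested on simulated data. The limma p-values set a difference against the spread among these tumors within their groups, with that spread moderated over all genes. No overlap means that all 3 values of a cohort lay beyond all 3 of the other.

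The genes named were the 10 with the smallest p in each direction, up to 4 with the smallest p of each list, the 15 with the largest pooled SD within cohorts, the 5 with the smallest SD over the 6 tumors, all glioma markers and genes of the study, and those detected in 1 cohort only. The exceptions, cell markers given as examples among them, were named after their values were seen. Members and lists were chosen with earlier results of these data known. Alternatives changed the background, scaling, filter, offset, probes, weights, variance model, samples, covariate and thresholds, and left out each array in turn.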

Additional observations from a re-analysis of the deposited data

How the results depend on the processing

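The count of 0 genes between the vehicle-treated cohorts held under every alternative but leaving out tumor 4 (0 to 4 genes when each tumor was left out in turn), which called Acta1, Tnnc2, Myl1 and Apln. The 278 genes at an unadjusted p under 0.05 became 695 with no filter and 679 with array quality weights, and 132 (without tumor 5) to 986 (without tumor 6) when each tumor was left out in turn. They were 139 without tumor 1, 155 without tumor 2 and 565 without tumor 4. For MNF the count of 0 became 1 with median centring and 0 to 91 when each tumor was left out, with 91 without replicate 2, 15 without replicate 1 and 1 without replicate 5. For the interaction it became 0 to 47, with 47 without vehicle tumor 6. The cause of these changes was not tested. The share of variance between cohorts ran from 15.2% to 36.3% when each tumor was left out, and was 33.2% with the muscle covariate.

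The compared cohorts share no replicate number. The deviations of vehicle and MNF tumors of the same number correlated at -0.18 to 0.379. For different numbers within a cohort the range was -0.364 to 0.396. Such correlations cannot show whether tumors of the same number shared a day or an array run. The fit of the interaction with a replicate block called 0 genes. Of 1020 recomputed differences of 51 named genes all kept their sign and none passed the adjusted test. These 51 were chosen for an unadjusted p under 0.05 (limma) on the same arrays, so that the kept sign is no separate check. Acta1, Tnnc2, Myl1 and Apln, which were called with a tumor left out, were not among the 51. Of 704 recomputed medians of 32 gene lists, 660 moved by less than the spread between tumors. The changed variance model alters p-values only and cannot move a median, so that a part of this count was fixed in advance. Leaving out tumors 5 and 6, or 1, 5 and 6, was chosen after seeing the data. Each cohort had 3 arrays only. Apart from that, genes near the detection floor have compressed differences.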
